A study of Mus musculus with 8 samples.

Results

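The neuropeptides of the lateral and other hypothalamic areas, outside the arcuate and magnocellular systems, were represented by 10 genes chosen by name and matched by Ensembl identifier in a count table of 55890 genes. They were *Hcrt*, *Pmch*, *Gal*, *Nts*, *Vip*, *Penk*, *Tac1*, *Grp*, *Adcyap1* and *Cck*. All 10 were among the 18637 genes that passed the filter on low counts and were tested. RNA sequencing with poly(A) selection was performed on hypothalamus from female mice at 16 weeks of age, in 8 pools of 2 animals each. The 4 POMC-C451Af/f pools came from mice that carry the POMC-Cre transgene and the floxed C451Af/f allele of *Esr1*, which after recombination encodes ERα without its palmitoylation site and so blocks signaling of the receptor from the cell membrane. The 4 control pools came from mice without the transgene, which the study's methods describe as homozygous C451Af/f littermates and the sample labels as wildtype. The transgene acts in cells that express *Pomc*, a small share of the tissue sequenced, and the comparison asks how expression in the whole hypothalamus differs when ERα of these cells cannot signal from the membrane.

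Neuropeptides are cut from larger precursor proteins and released by neurons to act on G protein-coupled receptors. *Hcrt* encodes the precursor of the orexins, which promote wakefulness and feeding, and *Pmch* that of melanin-concentrating hormone; both are made in separate neurons of the lateral hypothalamic area, which lies outside the arcuate nucleus where most POMC neurons are found. The other precursors are made in several hypothalamic nuclei and also in other brain areas, *Cck* among them in cortex and thalamus and *Vip* and *Grp* in the suprachiasmatic nucleus. In bulk tissue, a difference in the number of cells that make a peptide and a difference in RNA per cell cannot be told apart.

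The total estimated count lay between 36095253 and 40498166 in the POMC-C451Af/f pools and between 37841365 and 48942116 in the control pools. *Esr1*, the gene that carries the changed codon, was counted at 11.6, 12.2, 9.9965 and 10.8 CPM (estimated counts scaled to the normalized library size) in POMC-C451Af/f replicates 1 to 4 and at 12.3, 12.8, 11.6 and 16.0 CPM in control replicates 1 to 4. Its log2 fold change was -0.23 (SE 0.10; edgeR, unadjusted p = 0.0462, adjusted p = 0.878). The groups overlapped, and gene counts do not tell the substituted transcript from the intact one, so these values do not check the genotype.

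The pools also differed in marker lists of the hypothalamus and of areas around it. Markers of hypothalamic identity, a list of 6 transcription factor genes led by *Otp*, were present in every pool, with a summed level of 127, 143, 99.5 and 113 CPM in POMC-C451Af/f replicates 1 to 4 and 157, 124, 133 and 127 CPM in the controls. The 6 thalamus markers, led by *Prkcd*, summed to 155, 86.7, 312 and 197 CPM in the POMC-C451Af/f pools and to 49.3, 310.2, 113 and 102 CPM in the control pools. They were thus highest in POMC-C451Af/f replicate 3 and control replicate 2 and lowest in control replicate 1. Anterior pituitary markers, of which 4 of 7 passed the filter and *Lhb*, *Fshb* and *Pou1f1* did not, were led by *Prl* and summed to 1447 CPM in control replicate 1 and to between 16.5 and 223 CPM in the other pools. The 8 markers of midbrain dopaminergic neurons, led by *Aldh1a1*, summed to 313, 251, 484 and 354 CPM in the POMC-C451Af/f pools and to 220.0, 209, 253 and 269.9 CPM in the controls, and 7 of the 8 were higher in POMC-C451Af/f pools at an unadjusted edgeR p under 0.05, with 0 called. Of this list *Th* lay between 42.0 and 90.8 CPM over the pools and *En1* between 0.323 and 6.91 CPM. The list does not tell dopaminergic neurons of the midbrain from those of the hypothalamus, and where the difference arises was not tested. Markers of cortex and hippocampus, led by *Slc17a7*, summed to 26.0, 17.3, 61.6 and 34.2 CPM in the POMC-C451Af/f pools and to 18.7, 58.2, 18.6 and 19.6 CPM in the controls, and thus had the same highest pools as the thalamus markers. Over the lists of suprachiasmatic nucleus, mammillary region, striatum and choroid plexus, 1 gene had an unadjusted edgeR p under 0.05, the striatal *Pde10a*, with a log2 fold change of 0.24.

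Per kilobase of the longest annotated transcript, *Pmch* had the highest level of the 10 genes in control pools, 673 ± 123 CPM per kb (SD, n = 4). *Hcrt* followed with 259 ± 47.0 CPM per kb and *Penk*, the enkephalin precursor, with 64.7 ± 3.396 CPM per kb, and these 3 levels were separated by more than their spread. *Gal* (galanin) at 42.1 ± 1.15, *Cck* (cholecystokinin) at 37.7 ± 16.4, *Tac1* (substance P and neurokinin A) at 30.9 ± 3.46 and *Adcyap1* (PACAP) at 29.7 ± 2.25 CPM per kb came next. In that set *Cck* overlapped each of the others, and *Tac1* and *Adcyap1* did not differ beyond their spread. *Nts* (neurotensin) stood at 19.5 ± 2.11 CPM per kb. *Vip* (vasoactive intestinal peptide) at 3.96 ± 0.698 and *Grp* (gastrin-releasing peptide) at 2.17 ± 0.333 CPM per kb had the lowest levels. The lowest estimated count of *Grp* in a pool was 103, and counting error alone amounts to 9.83% of its value there, against 0.949% for *Pmch*.

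**Figure D1:**
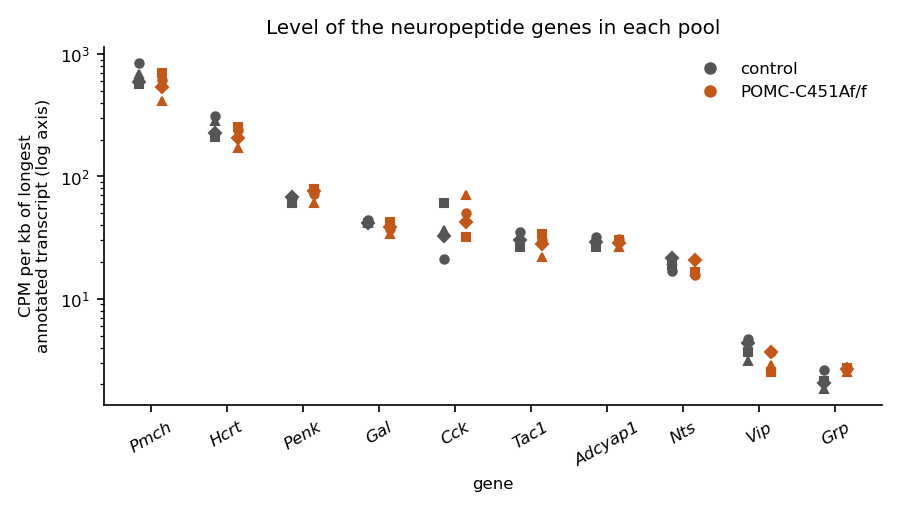
Level of each gene in CPM per kb of the longest annotated transcript (log axis), one point per pool, grey for control and orange for POMC-C451Af/f, with the marker shape giving the replicate number. *Pmch* and *Hcrt* lie above the other genes in every pool, and the points of *Cck* spread most, over a 3.29-fold range.

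*Pmch*, *Nts* and *Vip* lie on the same chromosome, and the other 7 genes each on a chromosome of its own. *Pmch* spans chromosome 10 from 88091072 to 88092375 on GRCm38, *Vip* from 5639218 to 5647617 and *Nts* from 102481756 to 102490486. Some of the 10 genes share annotated sequence with neighbours. *Pmch* overlaps *Parpbp* on the opposite strand over 944 bp. The libraries were prepared with a kit that keeps the strand, and *Parpbp* averaged 0.230 CPM over the 8 pools. *Penk* overlaps *A830012C17Rik* on the opposite strand over 499 bp, and that gene had at most 6 estimated counts in a pool. The *Grp* gene lies within the span of an antisense gene, *AC152076.4*, which had 0 counts in each pool.

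None of the 10 genes was called between genotypes in edgeR's quasi-likelihood test at an FDR of 0.05 and an absolute log2 fold change over 0.5, where 4 of all 18637 genes (0.0215%) were called. At an unadjusted p under 0.05 the test found 2 of the 10, *Gal* and *Grp*, against 950 of all genes (5.1%), and DESeq2, which called 0 of the 10, found 4, against 818 of all genes (4.39%). Without POMC-C451Af/f replicate 1, control replicate 3 or control replicate 4 the edgeR count was 1, against 5.32%, 3.65% and 5.88% of all genes. It was 3 without POMC-C451Af/f replicate 2, against 9.38% of all genes. For 0 of the 10 genes did the genotype groups not overlap, against 2.78% of all genes. In POMC-C451Af/f pools 3 of the genes had a higher and 7 a lower estimate than in controls. The median absolute log2 fold change was 0.20 over the 10 genes and 0.060 over all genes tested, and the median of the signed values was -0.13 over the 10 genes and 0.00085 over all genes. The spread between pools of 1 genotype was also larger for most of the 10. Its SD on the log2 scale ran from 0.099 for *Gal* to 0.54 for *Cck*, and only *Gal* lay below the all-gene median of 0.10. Several of the 10 covaried over the pools, so these medians do not rest on 10 separate values.

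*Hcrt* (ENSMUSG00000045471.5) was measured at 140.2, 149, 101 and 121 CPM in POMC-C451Af/f replicates 1 to 4 and at 183, 124, 167 and 134 CPM in control replicates 1 to 4. *Pmch* (ENSMUSG00000035383.8) was measured at 458, 521, 312 and 403 CPM in the POMC-C451Af/f pools and at 631, 427, 513 and 445 CPM in the control pools. Both genes were highest in control replicate 1 and lowest in POMC-C451Af/f replicate 3, and for both the genotype groups overlapped. The log2 fold change of *Hcrt* was -0.25 (SE 0.14; edgeR, adjusted p = 0.878). That of *Pmch* was -0.25 (SE 0.15; edgeR, adjusted p = 0.878).

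Galanin, from *Gal* (ENSMUSG00000024907.8), acts on feeding and reproduction, and its precursor RNA was measured at 29.5, 33.7, 26.8 and 30.2 CPM in POMC-C451Af/f pools and at 34.5, 32.6, 32.9 and 32.7 CPM in control pools. The control pools were close together, and POMC-C451Af/f replicate 2 was within their range while the other 3 POMC-C451Af/f pools were below it. This gave a log2 fold change of -0.14 (SE 0.061; edgeR, unadjusted p = 0.0380, adjusted p = 0.878).

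*Tac1* (ENSMUSG00000061762.13) was measured at 59.5, 66.5, 43.6 and 55.5 CPM in POMC-C451Af/f pools and at 69.0, 52.6, 62.9 and 59.6 CPM in controls. *Adcyap1* (ENSMUSG00000024256.8) was measured at 105, 102, 89.5 and 96.4 CPM in POMC-C451Af/f pools and at 109, 90.7, 104 and 99.7 CPM in controls. Both had the same highest and lowest pools as *Hcrt* and *Pmch*, and the genotype groups overlapped widely. *Tac1* had a log2 fold change of -0.12 (SE 0.12; edgeR, adjusted p = 0.900) and *Adcyap1* one of -0.034 (SE 0.063; edgeR, adjusted p = 0.951). Neither kept its sign in every fit given below.

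*Cck* (ENSMUSG00000032532.8), made in many forebrain neurons and acting in satiety and in cortical circuits, was measured at 40.2, 25.6, 56.1 and 33.8 CPM in POMC-C451Af/f pools and at 17.0, 48.1, 29.4 and 25.9 CPM in controls. It was highest in POMC-C451Af/f replicate 3 and lowest in control replicate 1, the reverse of the preceding genes. Between genotypes the log2 fold change was 0.37 (SE 0.29; edgeR, adjusted p = 0.885). The SD of *Cck* within genotypes, 0.54 on the log2 scale, was reached by 0.993% of all genes tested, whereas the median over all genes was 0.10. Without control replicate 2, in which thalamus markers were high, the log2 fold change was 0.68, without POMC-C451Af/f replicate 3 it was 0.14 and without control replicate 1 it was 0.17.

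*Grp* (ENSMUSG00000024517.18) was measured at 3.58, 3.60, 3.34 and 3.53 CPM in POMC-C451Af/f pools and at 3.47, 2.80, 2.43 and 2.73 CPM in controls. Control replicate 1 lay within the range of the POMC-C451Af/f pools and the other 3 controls below it. The genotypes differed by 0.30 on the log2 scale (SE 0.12; edgeR, unadjusted p = 0.0342, adjusted p = 0.878). *Penk* (ENSMUSG00000045573.10), whose enkephalins act on opioid receptors, was measured at 104, 115, 88.7 and 111 CPM in POMC-C451Af/f pools and at 97.1, 88.7, 90.4 and 98.7 CPM in controls. In 3 POMC-C451Af/f pools it lay above the controls and in replicate 3 level with the lowest of them. Its log2 fold change was 0.16 (SE 0.073; edgeR, adjusted p = 0.878).

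*Vip* (ENSMUSG00000019772.6), a peptide of suprachiasmatic neurons that couple the circadian clock, was measured at 9.36, 6.42, 7.30 and 9.29 CPM in POMC-C451Af/f pools and at 11.8, 9.37, 7.87 and 11.04 CPM in controls. *Nts* (ENSMUSG00000019890.5) was measured at 19.7, 20.8, 21.3 and 26.0 CPM in POMC-C451Af/f pools and at 21.1, 23.5, 26.1 and 26.9 CPM in controls. For both genes the groups overlapped, and the highest pool was a control. *Vip* had a log2 fold change of -0.31 (SE 0.15) and *Nts* one of -0.15 (SE 0.095), each with an adjusted p of 0.878 (edgeR).

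These estimates varied with single pools. In 8 further fits, each on 7 of the pools, they ran from -0.34 to -0.15 for *Hcrt*, from -0.37 to -0.13 for *Pmch*, from -0.21 to -0.093 for *Gal*, from -0.24 to -0.11 for *Nts*, from -0.41 to -0.21 for *Vip*, from 0.11 to 0.23 for *Penk*, from -0.21 to -0.013 for *Tac1*, from 0.23 to 0.41 for *Grp*, from -0.082 to 0.0082 for *Adcyap1* and from 0.14 to 0.68 for *Cck*. The unadjusted edgeR p of *Gal* was under 0.05 in 1 of these 8 fits and that of *Grp* in 2. It was under 0.05 in 3 fits for *Vip*, in 2 each for *Hcrt*, *Nts* and *Penk*, in 1 each for *Pmch* and *Cck* and in 0 for *Tac1* and *Adcyap1*, so the genes under 0.05 changed with the pool left out. The lowest values were 0.00122 for *Penk* without POMC-C451Af/f replicate 3 and 0.00190 for *Gal* without POMC-C451Af/f replicate 2.

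With the mean of the midbrain markers as a covariate, the log2 fold change was -0.023 (SE 0.16) for *Hcrt*, 0.060 (SE 0.15) for *Pmch*, -0.013 (SE 0.058) for *Gal*, 0.088 (SE 0.13) for *Tac1*, 0.027 (SE 0.084) for *Adcyap1* and 0.067 (SE 0.43) for *Cck*. It was farther from 0 than without the covariate for *Nts*, -0.28 (SE 0.12; unadjusted p = 0.0457), *Vip*, -0.38 (SE 0.22; unadjusted p = 0.117), *Penk*, 0.26 (SE 0.089; unadjusted p = 0.0150), and *Grp*, 0.41 (SE 0.17; unadjusted p = 0.0381). Without POMC-C451Af/f replicates 3 and 4 the values were -0.070 for *Hcrt*, -0.042 for *Pmch*, -0.070 for *Gal*, -0.27 for *Nts*, -0.34 for *Vip*, 0.23 for *Penk*, 0.047 for *Tac1*, 0.33 for *Grp*, 0.044 for *Adcyap1* and 0.13 for *Cck*. The mean of the thalamus markers as a covariate, an alternative chosen after seeing the data, gave -0.11 for *Hcrt*, -0.097 for *Pmch*, -0.10 for *Gal*, -0.19 for *Nts*, -0.26 for *Vip*, 0.21 for *Penk* (SE 0.059; unadjusted p = 0.00464), -0.00029 for *Tac1*, 0.36 for *Grp* (SE 0.13; unadjusted p = 0.0175), 0.028 for *Adcyap1* and 0.070 (SE 0.078) for *Cck*. Over all fits run, the lowest adjusted p of any of the 10 genes was 0.416. Why the estimates differ between these fits was not tested.

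**Figure D2:**
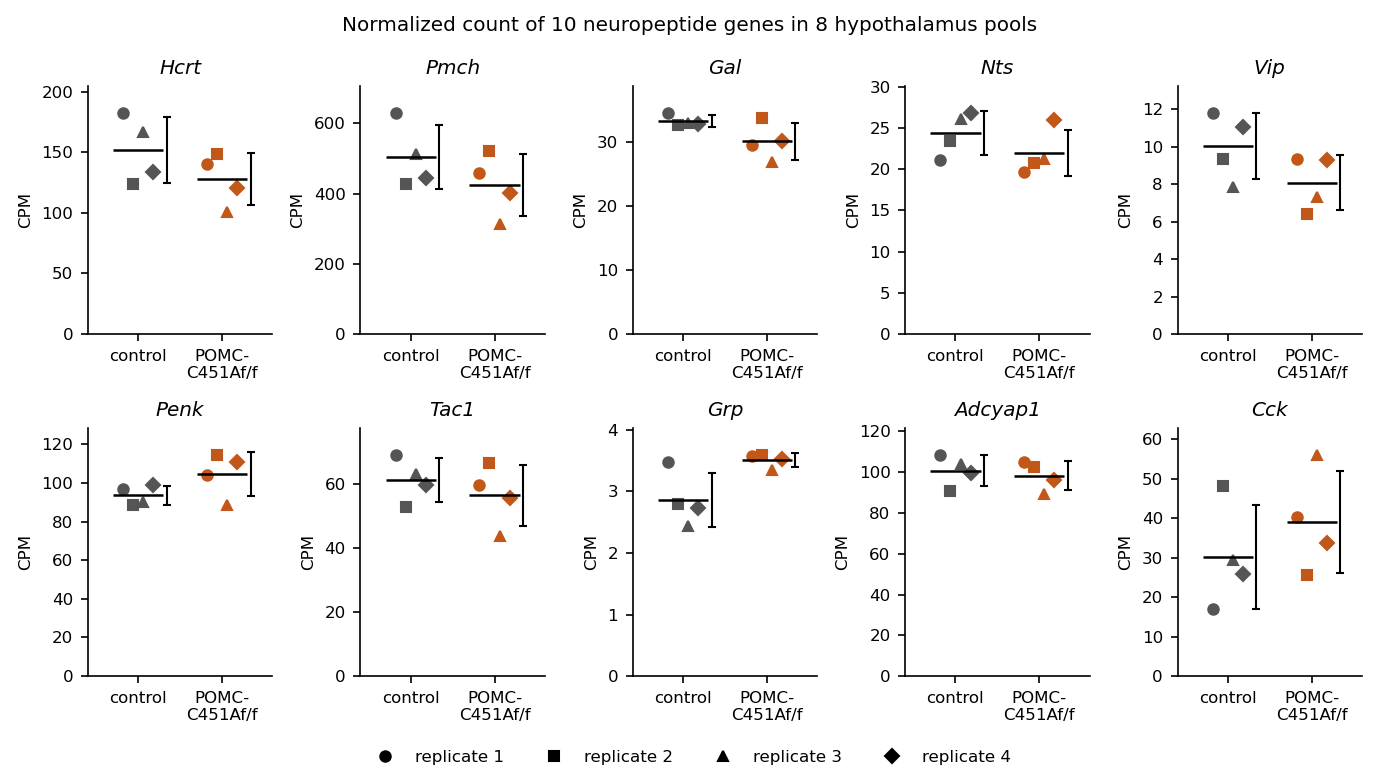
Normalized count of each of the 10 genes in CPM (linear axes from 0), one point per pool with the marker shape giving the replicate number, the mean as a horizontal line and ± 1 SD of the 4 pools as a bar beside it. For each gene the control (grey) and POMC-C451Af/f (orange) pools overlap, and the triangle of POMC-C451Af/f replicate 3 is lowest for *Hcrt*, *Pmch*, *Gal*, *Penk*, *Tac1* and *Adcyap1* and highest for *Cck*.

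Of 19 receptor genes for these peptides, 17 passed the filter; *Galr2* and *Tacr2* did not, with at most 15 and 4 estimated counts in a pool. None of the 17 was called in edgeR's test and none with DESeq2. At an unadjusted p under 0.05 edgeR found 1 of the 17, against 5.1% of all genes tested. It was the neurotensin receptor *Ntsr1*, measured at 25.6, 23.1, 26.1 and 25.4 CPM in POMC-C451Af/f pools and at 22.9, 19.9, 23.3 and 24.4 CPM in controls. The groups overlapped, and its log2 fold change was 0.15 (SE 0.065; edgeR, adjusted p = 0.878). The estimate was higher in POMC-C451Af/f pools for 10 of the 17 receptor genes and lower for 7, with a median log2 fold change of 0.034. The orexin receptors *Hcrtr1* and *Hcrtr2* had log2 fold changes of 0.11 (SE 0.070) and -0.086 (SE 0.098), and the melanin-concentrating hormone receptor *Mchr1* 0.058 (SE 0.085). The largest estimate was that of the opioid receptor *Oprm1*, 0.50 (SE 0.24; edgeR, adjusted p = 0.878), at levels of 0.397 to 0.870 CPM.

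**Figure D3:**
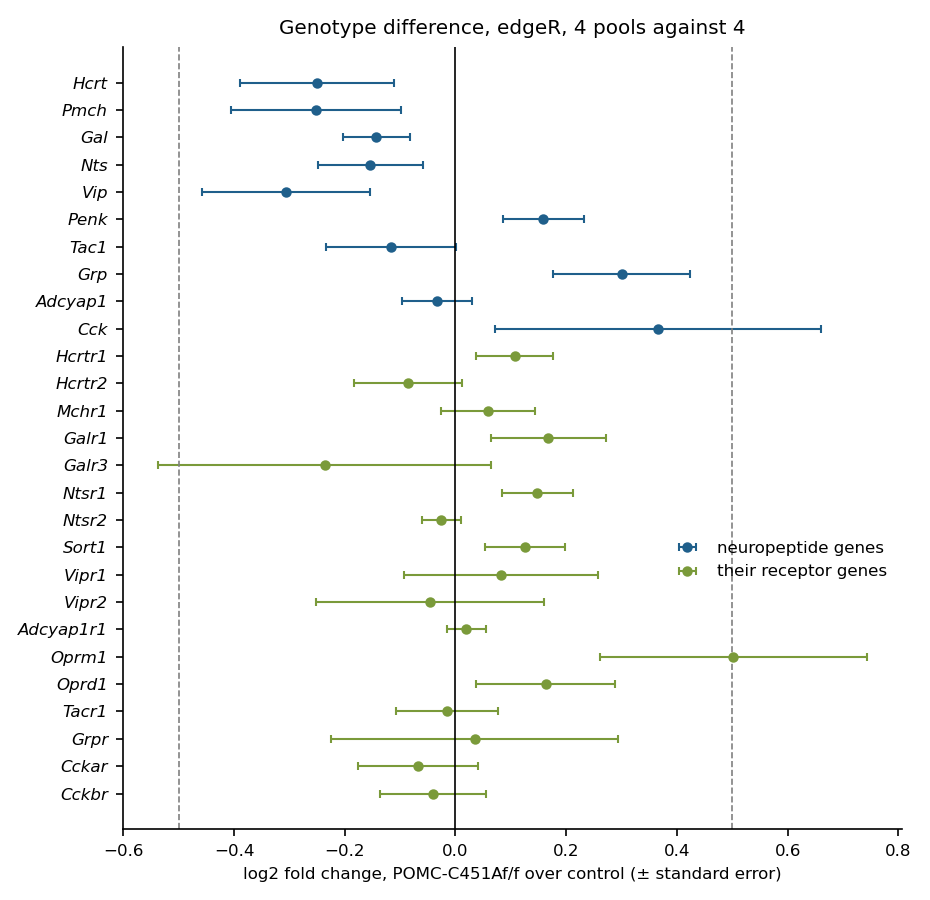
Log2 fold change of POMC-C451Af/f over control for the 10 neuropeptide genes (blue) and the 17 tested receptor genes (green), with bars of ± 1 standard error from edgeR. Dashed lines mark the fold change threshold of 0.5, and among the neuropeptide genes the estimates run from -0.31 for *Vip* to 0.37 for *Cck*.

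Genes known from orexin and melanin-concentrating hormone neurons were compared as well, and of these 5 edgeR called 0 and found 0 at an unadjusted p under 0.05. *Pdyn*, whose dynorphins are made in orexin neurons and elsewhere, was measured at 53.7, 62.5, 39.0 and 51.5 CPM in POMC-C451Af/f pools and at 70.4, 56.9, 61.6 and 53.3 CPM in controls. As for *Hcrt*, control replicate 1 was highest and POMC-C451Af/f replicate 3 lowest, and the log2 fold change was -0.23 (SE 0.13; edgeR, adjusted p = 0.878). *Cartpt*, made in melanin-concentrating hormone neurons among others, had a log2 fold change of 0.14 (SE 0.15), and *Lhx9*, a transcription factor of orexin neurons, 0.66 (SE 0.32), each with its highest value in POMC-C451Af/f replicate 3.

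The upstream sequence is shown for the strongest positive pair, *Hcrt* and *Pmch*, for *Gal* and *Adcyap1*, which each covaried with *Pmch* but not past the threshold with each other, and for *Cck*, which ran against *Hcrt* and *Pmch*. The sequences are from RefSeq on GRCm38.p6, 5′ to 3′ on the strand of the gene, and each is the 120 bases before the start site; TATAAA and TGACG, the half-site of the cyclic AMP response element, are in capitals, the latter also where the other strand carries it.
*Hcrt*, chr11:100762932-100763051, minus strand: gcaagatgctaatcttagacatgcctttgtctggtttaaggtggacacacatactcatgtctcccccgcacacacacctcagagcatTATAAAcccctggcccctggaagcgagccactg
*Pmch*, chr10:88090952-88091071, plus strand: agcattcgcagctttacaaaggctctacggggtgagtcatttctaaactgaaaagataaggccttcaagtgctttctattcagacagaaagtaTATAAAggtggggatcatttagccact
*Gal*, chr19:3414545-3414664, minus strand: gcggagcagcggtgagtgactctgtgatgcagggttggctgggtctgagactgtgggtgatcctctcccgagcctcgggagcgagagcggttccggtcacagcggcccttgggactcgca
*Adcyap1*, chr17:93198897-93199016, plus strand: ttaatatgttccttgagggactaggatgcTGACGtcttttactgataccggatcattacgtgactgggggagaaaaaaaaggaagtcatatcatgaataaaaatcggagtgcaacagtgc
*Cck*, chr9:121495695-121495814, minus strand: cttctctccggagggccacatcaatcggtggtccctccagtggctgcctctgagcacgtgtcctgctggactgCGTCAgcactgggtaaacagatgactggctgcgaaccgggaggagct

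An entry was found for 8 of the 10 genes and none for *Penk* and *Grp*. Over the 250 bases before the start site and on both strands, 5 motifs were searched; TGACG and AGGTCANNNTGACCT joined the search only after the output for the other 3 had been seen, so the TGACG result is not independent of that first look. TATAAA was found in 3 of the 8 genes and in 12.4% of the 32851 promoters of the table. It begins 33 bases before the start site in *Hcrt*, 27 in *Pmch* and 30 in *Vip*, and *Vip* has further matches. TGACG was found in 5 of the 8, *Nts*, *Vip*, *Tac1*, *Adcyap1* and *Cck*, and in 17.8% of all promoters. The windows of *Nts* and *Tac1*, 2 of these 5, reach into the annotated span of the same gene, and their sequence is not shown; those of the other 6 genes reach into no annotated gene. The complete cyclic AMP response element TGACGTCA, which contains the half-site, was found in 0 of the 8 and in 1.55% of all promoters. The estrogen response element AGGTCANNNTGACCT (0.0213% of all promoters) and its half-site AGGTCA (14%) were found in 0 of the 8. *Hcrt* and *Pmch* share the TATAAA match, and neither holds TGACG in this window. A match describes letters in the window and was not tested as a binding site.

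Covariation of the 10 genes was measured as Pearson's r of log2(CPM + 0.5) over the 8 pools for all 45 pairs, with two-sided exact permutation tests and Benjamini-Hochberg adjustment over the 45. An adjusted p under 0.05 was reached by 11 pairs, 8 with positive and 3 with negative r. The positive pairs lay among *Hcrt*, *Pmch*, *Tac1*, *Adcyap1* and *Gal*, and the negative ones joined *Cck* to *Hcrt*, *Pmch* and *Tac1*. An absolute r of 0.8 or more was found in 13 pairs, 28.9% of the 45, against 3.12% of all pairs of tested genes. These 13 pairs lay among 6 of the genes and are not separate results. The pairs of all tested genes were not matched to them for level or spread. *Nts*, *Vip*, *Penk* and *Grp* were in none of the 11 pairs. With Spearman's rho in place of Pearson's r, 8 pairs passed. With each genotype centred on its own mean, 16 pairs passed, and these included all 11. Of the 5 added pairs 3 involve *Penk*, with r of 0.860 with *Gal* (adjusted p = 0.0374), 0.836 with *Tac1* (adjusted p = 0.0374) and -0.795 with *Cck* (adjusted p = 0.0489), each centred and tested by permutation. After centring, the 8 values were permuted freely across genotypes. The p-values of centred data are therefore approximate, here and below, and take no account of the means removed. The count rests on a few pools: it was 1 without POMC-C451Af/f replicate 3, 4 without POMC-C451Af/f replicate 2, 4 without control replicate 1 and 6 without control replicate 3.

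*Hcrt* and *Pmch* had the highest r, 0.975 (exact permutation p = 0.000149, adjusted p = 0.00446; Spearman's rho 0.976, exact permutation p = 0.000397). Without the 2 pools farthest from the median of *Hcrt*, POMC-C451Af/f replicate 3 and control replicate 1, r was 0.933. The ratio of *Hcrt* to *Pmch* CPM, not corrected for length, was 0.306, 0.286, 0.323 and 0.3002 in POMC-C451Af/f replicates 1 to 4 and 0.290, 0.291, 0.325 and 0.301 in control replicates 1 to 4. It stayed within a narrow band in both genotypes, with a coefficient of variation of 4.84% over the 8 pools, whereas that of *Hcrt* itself was 18.8% and that of *Pmch* 20.3%.

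*Tac1* followed both genes. Its r was 0.959 with *Pmch* (exact permutation p = 0.000198, adjusted p = 0.00446; rho 0.952, exact permutation p = 0.00114) and 0.931 with *Hcrt* (exact permutation p = 0.000719, adjusted p = 0.00809; rho 0.929, exact permutation p = 0.00223). Without the 2 farthest pools these values were 0.892 and 0.818. *Adcyap1* had r of 0.907 with *Tac1* (exact permutation p = 0.000645, adjusted p = 0.00809; rho 0.833, exact permutation p = 0.0154), and 0.828 without the 2 farthest pools. With *Hcrt*, the r of *Adcyap1* was 0.900 (exact permutation p = 0.00221, adjusted p = 0.0199; rho 0.905, exact permutation p = 0.00456), and 0.758 without the 2 farthest pools. *Gal* had r of 0.875 with *Pmch* (exact permutation p = 0.00407, adjusted p = 0.0229; rho 0.857, exact permutation p = 0.0107), but 0.565 without POMC-C451Af/f replicate 3 and control replicate 1, so that relation rests on those pools.

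*Cck* ran in the opposite direction. Its r was -0.890 with *Tac1* (exact permutation p = 0.00317, adjusted p = 0.0206; rho -0.952, exact permutation p = 0.00114) and -0.868 with *Pmch* (exact permutation p = 0.00650, adjusted p = 0.0325; rho -0.833, exact permutation p = 0.0154). Without POMC-C451Af/f replicate 3 and control replicate 1, r was -0.787 with *Tac1* and -0.532 with *Pmch*, so the latter rests on those pools. *Hcrt* and *Cck* had r of -0.840 (exact permutation p = 0.0103, adjusted p = 0.0438; rho -0.786, exact permutation p = 0.0279), and -0.488 without the 2 farthest pools. Over the 11 pairs, the absolute r without the 2 farthest pools ran from 0.488 to 0.933.

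**Figure D4:**
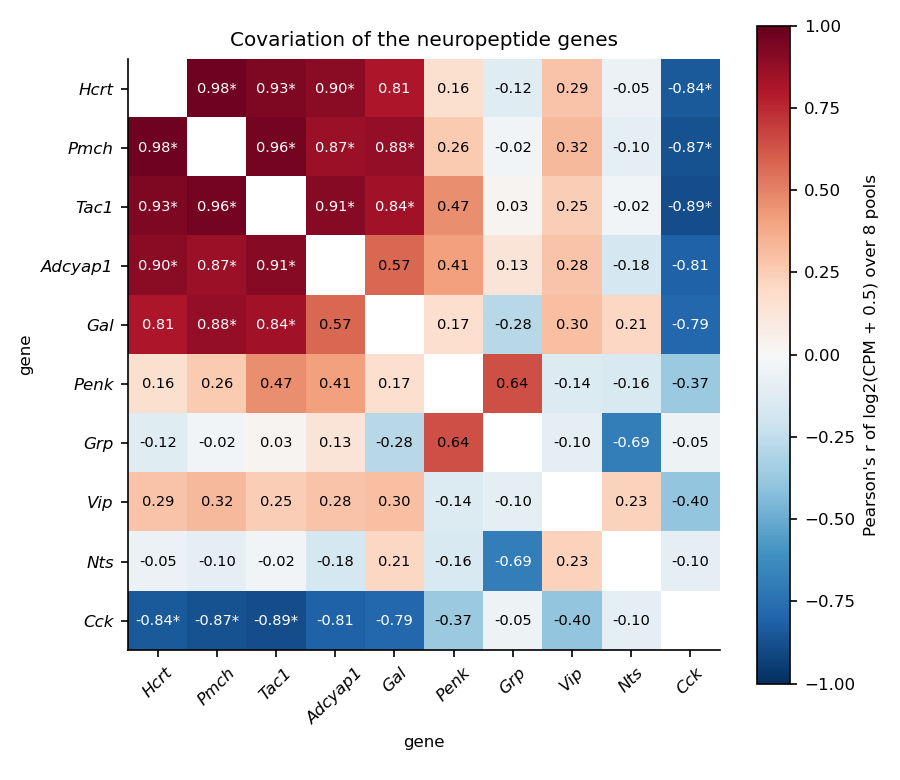
Pearson's r of log2(CPM + 0.5) over the 8 pools for each pair of the 10 genes, with red for positive and blue for negative values and asterisks on pairs with a Benjamini-Hochberg adjusted exact permutation p under 0.05. Of the 10 pairs among *Hcrt*, *Pmch*, *Tac1*, *Adcyap1* and *Gal*, 8 carry an asterisk and *Gal* with *Hcrt* (r 0.806) and with *Adcyap1* (r 0.574) do not; *Cck* has r between -0.785 and -0.890 with these 5, past the threshold for 3.

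The same measure was applied between each gene and the mean log2(CPM + 0.5) of 9 marker lists of brain areas and neighbouring tissue, 90 relations in all, of which 12 reached an adjusted p under 0.05. *Pmch* rose and fell with the markers of hypothalamic identity, with r of 0.963 (exact permutation p = 9.92e-05, adjusted p = 0.00893; rho 0.976, exact permutation p = 0.000397) and 0.892 without the 2 farthest pools. *Hcrt* had r of 0.933 with the same list (exact permutation p = 0.00159, adjusted p = 0.0310; rho 0.929, exact permutation p = 0.00223) and *Tac1* 0.896 (exact permutation p = 0.00275, adjusted p = 0.0310; rho 0.905, exact permutation p = 0.00456). Without the 2 farthest pools these were 0.771 and 0.743.

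*Cck* followed the thalamus markers closely, with r of 0.976 (exact permutation p = 0.000223, adjusted p = 0.01004; rho 0.976, exact permutation p = 0.000397) and 0.937 without the 2 farthest pools. *Hcrt*, *Pmch*, *Tac1* and *Adcyap1* ran against these markers, and *Tac1* had the lowest r, -0.899 (exact permutation p = 0.00270, adjusted p = 0.0310; rho -0.976, exact permutation p = 0.000397), with -0.942 without the 2 farthest pools. *Hcrt*, *Tac1* and *Adcyap1* also ran against the markers of cortex and hippocampus. *Gal* was the only one of the 10 with a relation past the threshold to the midbrain dopaminergic markers, with r of -0.903 (exact permutation p = 0.00241, adjusted p = 0.0310; rho -0.738, exact permutation p = 0.0458) and -0.777 without the 2 farthest pools. With each genotype centred it was -0.827 (approximate permutation p = 0.0125, adjusted p = 0.0703) and did not pass. Centring left 14 relations past the threshold, 11 of them among the 12. With Spearman's rho in place of Pearson's r, 9 relations passed.

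*Vip* had its highest r with the suprachiasmatic markers, 0.760 (exact permutation p = 0.0318, adjusted p = 0.138; rho 0.619, exact permutation p = 0.115), which did not pass, and 0.751 without the 2 farthest pools. With each genotype centred it was 0.940 (approximate permutation p = 0.00236, adjusted p = 0.0338). *Grp*, *Nts* and *Penk* had no relation past the threshold over the 8 pools as measured. With each genotype centred, *Grp* and the anterior pituitary markers had r of 0.885 (approximate permutation p = 0.00181, adjusted p = 0.0326). Without centring r was 0.462 (exact permutation p = 0.254, adjusted p = 0.572), and rho was 0.381 (exact permutation p = 0.360). Control replicate 1 was the highest control in both. *Grp* stood there at 3.47 CPM, against 2.43 to 2.80 CPM in the other controls. The mean log2(CPM + 0.5) of the pituitary markers was 6.18, against 2.11 to 3.09. The centred r without that pool was not computed. The count of 12 also changed with the pool left out: it was 0 without POMC-C451Af/f replicate 2, 2 without control replicate 1, 2 without control replicate 4, 3 without control replicate 3, 4 without POMC-C451Af/f replicate 3, 5 without POMC-C451Af/f replicate 1, 5 without POMC-C451Af/f replicate 4 and 20 without control replicate 2.

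After the values had been seen, the thalamus list was regressed out of each gene. The r of each of the 8 positive pairs was then lower. It was 0.882 for *Hcrt* and *Pmch*, 0.792 for *Pmch* and *Tac1*, 0.702 for *Pmch* and *Gal*, 0.670 for *Hcrt* and *Tac1*, 0.591 for *Gal* and *Tac1*, 0.578 for *Tac1* and *Adcyap1*, 0.566 for *Hcrt* and *Adcyap1* and 0.394 for *Pmch* and *Adcyap1*. The r of *Cck* was 0.207 with *Hcrt*, 0.060 with *Pmch* and -0.134 with *Tac1*. These are values with no test. How the tissue of each pool was dissected was not measured, and its part in the covariation was not tested.

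**Figure D5:**
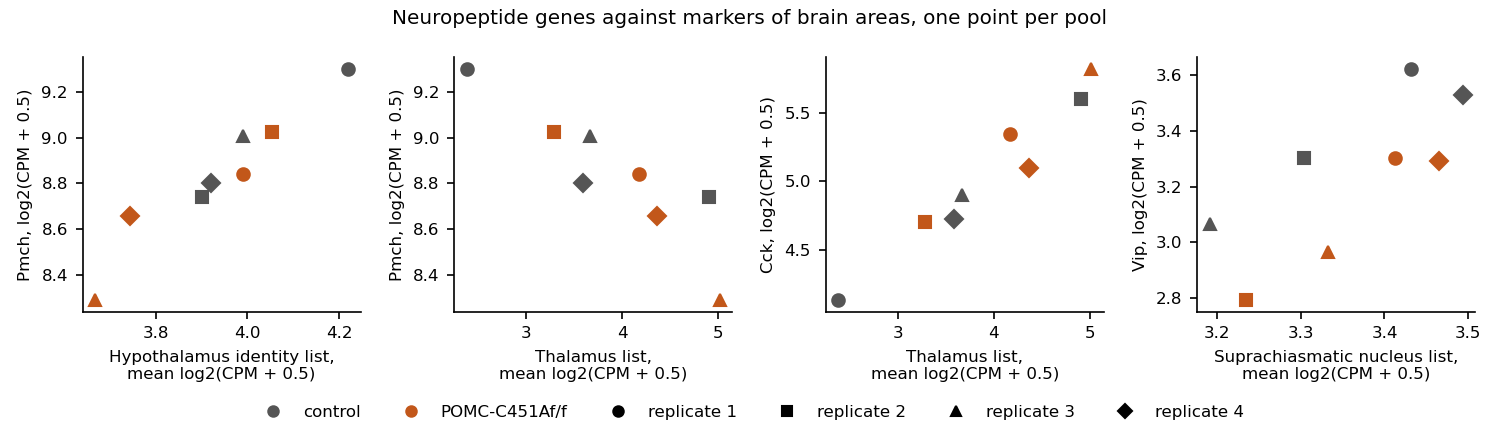
Level of *Pmch*, *Cck* and *Vip* as log2(CPM + 0.5) against the mean log2(CPM + 0.5) of marker lists of hypothalamic identity, thalamus and suprachiasmatic nucleus, one point per pool, grey for control and orange for POMC-C451Af/f. *Pmch* rises with the hypothalamic list (r 0.963) and falls with the thalamus list, and *Cck* rises with the thalamus list (r 0.976).

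Of the 12397 tested genes with a mean of at least 5 CPM, those most like each neuropeptide gene over the 8 pools were listed as a description. *Ccdc136* (r 0.997) and *Cpne7* (r 0.992) were most like *Cck*. *Mcfd2* (r 0.990) and *Ppp1r15a* (r 0.984) were most like *Hcrt*, and *Ppp1r15a* (r 0.993) and *Pi16* (r 0.985) most like *Pmch*. *Pacs1* (r 0.979) was most like *Vip* and *Nolc1* (r 0.979) most like *Penk*. For each of the 10 genes the most similar gene had an r of at least 0.9535. A search of 12397 genes over 8 pools also yields high r without any relation. These values therefore do not show that a gene follows a neuropeptide gene, and none was tested.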

How the data were processed

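Hypothalamic RNA of 4 POMC-C451Af/f and 4 control pools was analysed. Per the study's methods and the labels, the authors quantified reads with Salmon 1.10 against a GENCODE mouse transcriptome on GRCm39 and summed them to genes; the deposited table holds estimated counts, not normalized between pools. A second deposited table holds the authors' own comparison of the genotypes and was not used.

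Estimated counts were rounded to whole numbers, filtered with filterByExpr (minimum count 10, minimum total 15), normalized by TMM and tested with edgeR 4.0.16 (glmQLFit, glmQLFTest) in R 4.3.3 on genotype alone, Benjamini-Hochberg adjusted over 18637 genes. DESeq2 1.42.0 was an alternative. CPM are on TMM-scaled library sizes. Correlations used a pseudocount of 0.5 and all 40320 pairings of the pools. Positions and transcript lengths are from GENCODE M21 on GRCm38, matched for 51424 identifiers and not converted. Transcripts sharing sequence were searched with blastn 2.17.0. Procedures were tested on simulated data. No 2 pools were as alike as sampling noise allows (chi-square over degrees of freedom of 4.58 or more).

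The text names the 10 genes, their receptors, genes of orexin and melanin-concentrating hormone neurons, *Esr1*, genes overlapping the 10, leading genes of the marker lists and the genes most like each of the 10. The genes and lists were chosen with earlier results of these data known. The alternatives were DESeq2, DESeq2's size factors, total counts, unfiltered genes, a minimum of 10 counts in each pool, counts not rounded, FDR alone, a replicate block, midbrain markers as a covariate, POMC-C451Af/f replicates 3 and 4 left out, each pool left out, Spearman's rho and genotype centring; the thalamus markers as a covariate, and summed CPM of the marker lists in the rule on far-off pools, were added after seeing the data.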

Additional observations from a re-analysis of the deposited data

Results flagged for a closer look

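In groups of 4 pools, a pool was singled out when its distance to the nearest other pool exceeded Dixon's 95% critical value as a share of the group's range. Of 86 groups examined 5 were singled out, and chance gives about 1 in 20. Genes were judged in CPM and the 9 marker lists by their mean log2(CPM + 0.5), on which none of their 18 groups was singled out. On summed CPM, a scale added after seeing the data, 3 of the 18 were: the suprachiasmatic markers in POMC-C451Af/f replicate 2 (92.2 CPM), those of cortex and hippocampus in control replicate 2 (58.2 CPM) and those of the anterior pituitary in control replicate 1 (1447 CPM). The suprachiasmatic sum was led by *Rgs16*, at 31.6 CPM in that pool against 46.0 to 49.1 CPM in the other POMC-C451Af/f pools. *Rorb* and *Nms* were also lowest there, while *Prok2*, *Lhx1* and *Six6* lay within the range of those pools. In control replicate 1 *Gal* stood at 34.5 CPM, and the other controls lay between 32.6 and 32.9 CPM. *Hcrtr1* stood at 7.53 CPM in POMC-C451Af/f replicate 3, against 7.97 to 8.07 CPM. In control replicate 2 *Vipr2* stood at 10.8 CPM, and the other controls lay between 6.38 and 6.73 CPM. *Lhx9* stood at 19.0 CPM and *Cartpt* at 116 CPM in POMC-C451Af/f replicate 3, against 6.15 to 8.26 CPM and 69.7 to 71.2 CPM. In 3 of the 5 the pool was POMC-C451Af/f replicate 3, which also had the highest thalamus markers, and the part of tissue composition was not tested.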

How the results depend on the processing

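No neuropeptide or receptor gene was called under any of the alternatives run. Of 180 log2 fold changes recomputed for the 10 genes, 172 kept their sign, though not always their size. With the midbrain markers as a covariate the sign reversed for *Pmch* (0.060), *Tac1* (0.088) and *Adcyap1* (0.027); without POMC-C451Af/f replicates 3 and 4 it reversed for *Tac1* (0.047) and *Adcyap1* (0.044); with the thalamus markers as a covariate it reversed for *Adcyap1* (0.028). Leaving out each pool, *Adcyap1* ranged from -0.082 to 0.0082 (0.0031 without control replicate 1). The count of the 10 genes at an unadjusted p under 0.05, 2 with all pools in edgeR, was 4 with DESeq2. It was 5 without the filter (4.68% of all genes there) and 1 to 3 when each pool was left out. In the fits with a pool left out, the share of all genes ran from 3.37% without control replicate 1 to 9.38% without POMC-C451Af/f replicate 2. The count of 3 came from the fit without POMC-C451Af/f replicate 2. All genes called, 4 with edgeR, were 13 with DESeq2, 2 with at least 10 counts in every pool and 7 without POMC-C451Af/f replicates 3 and 4.

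With the replicate number as a block, 5 of the 10 genes had an unadjusted p under 0.05, against 6.06% of all genes, and 2 genes were called in all. Deviations of same-numbered pools correlated at 0.14, -0.18, -0.11 and 0.24, and a shared number was therefore not taken as a pairing. Pairs past the threshold ranged from 1 to 13 and relations to marker lists from 0 to 20 when each pool was left out. With the thalamus list regressed out, r reversed for *Hcrt* and *Cck* (0.21) and for *Pmch* and *Cck* (0.060). The cause of these changes was not tested. Counting error in the lowest pool was largest for *Grp*.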
